A study of Homo sapiens with 33 samples.

Results

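The 6 libraries described here are the DMSO and palbociclib libraries of the lines MPP89 and MeT-5A, which are resistant to palbociclib. They were chosen by their labels and form 3 pairs, 2 of MPP89 and 1 of MeT-5A, each pair holding a DMSO and a palbociclib culture of the same line and replicate number. They are 6 of the 33 libraries of the RNA-seq series and 2 of its 6 lines. MPP89, from a malignant pleural mesothelioma (MPM), carries a mutation of RB1. MeT-5A cells are mesothelial, were immortalized by SV40 and stand here for cells that lack pRb function. Cells received 1 µM palbociclib or 0.1% DMSO and were collected at day 9. The series also holds 1 untreated MeT-5A library, with no day given, and 22 DMSO and palbociclib libraries of 4 sensitive MPM lines (H2052, H2452, H28 and MSTO-211H), which form 11 pairs. Of these 22 libraries, 14 were collected at day 9 and 8 at day 10.

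Palbociclib inhibits CDK4 and CDK6, the kinases that D-type cyclins bring to the retinoblastoma protein pRb, encoded by RB1. Phosphorylation of pRb releases E2F transcription factors, which drive the genes of DNA replication and mitosis, and inhibition of CDK4/6 in a cell with functional pRb therefore holds it in G1. A cell without functional pRb, through mutation or through binding of the SV40 large T antigen, no longer depends on these kinases. Such cells typically carry high amounts of p16, the CDK4/6 inhibitor encoded by CDKN2A, since pRb restrains its expression. The question addressed by these pairs is which transcripts respond to palbociclib where the pRb pathway is not functional.

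Values are counts per 20000000 reads, rounded up to whole numbers (CP20M). All differences are log2 fold changes, palbociclib against DMSO of the same pair, on the log2(CP20M + 10) scale, which understates the change of low genes. A gene was called changed at a Benjamini-Hochberg FDR under 0.05 in limma with the pair as a block, and was tested if it reached 100 CP20M in at least 1 library of the fit. MeT-5A has a single pair and so no replicate check of its own. The study describes replicates of a line as independent experiments. In limma the spread between pairs is moderated towards that of all genes. P-values therefore do not measure the spread of a single gene between experiments alone. In the fits of the resistant pairs, of the sensitive pairs and of both classes together, pairs of different lines counted as replicates.

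The levels of pRb pathway genes differed between the lines. RB1 was at 177 and 226 CP20M in the DMSO libraries of MPP89 and at 203 and 256 with palbociclib, against 3808 and 3567 in MeT-5A. CDKN2A was between 5701 and 6913 CP20M in all 6 libraries, whereas it reached at most 34 in the DMSO libraries of the sensitive lines. CDKN2B, which encodes the related inhibitor p15, was between 1293 and 4710 CP20M in the 6 libraries and at 0 in the DMSO libraries of the sensitive lines. The study ascribes the lack of p16 in most of its sensitive lines mainly to deletion or mutation of CDKN2A. NF2, a tumour suppressor often lost in MPM, was at 699 to 885 CP20M in MPP89 and at 4811 and 4693 in MeT-5A. Mesothelial markers differed between the lines. MSLN (mesothelin) was at 2400 to 3068 CP20M in MPP89 but at 91 and 76 in MeT-5A, and WT1 at 148 to 202 against 0 and 2. KRT7 was at 28925 to 36778 CP20M in MPP89 against 3799 and 3361. PDPN (podoplanin) went the other way, at 12 to 20 CP20M in MPP89 and at 200 and 213 in MeT-5A. KRT8 (44432 to 47113 CP20M) and KRT18 (19170 to 23548) were high in both lines. CALB2 (calretinin) was present in both lines, between 397 and 1577 CP20M. Of 14 mesothelial markers 7 reached 100 CP20M in any of the 6 libraries. Of 15 markers of other cell types 6 entries did, with RGS5 counted under both of its entries, while CD3E was at 0 in all 6.

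The response to palbociclib was narrow in all 3 resistant pairs. The SD of the log2 fold changes over 15524 genes was 0.15 in MPP89 pair 1, 0.16 in MPP89 pair 2 and 0.16 in MeT-5A, against 0.45 to 0.79 in the 11 sensitive pairs. Within 0.32 of DMSO in log2 lay 95.1% of the genes in MPP89 pair 1, 94.9% in MPP89 pair 2 and 94.5% in MeT-5A. Beyond 1.5-fold, 40 genes were higher and 20 lower in MPP89 pair 1, 51 were higher and 34 lower in MPP89 pair 2, and 68 were higher and 40 lower in MeT-5A. These are 0.386%, 0.548% and 0.696% of the genes, and the sensitive pairs had 14.7% to 34.4%. The median log2 fold change was 0.02, 0.00 and 0.02 in the 3 pairs.

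**Figure D1:**
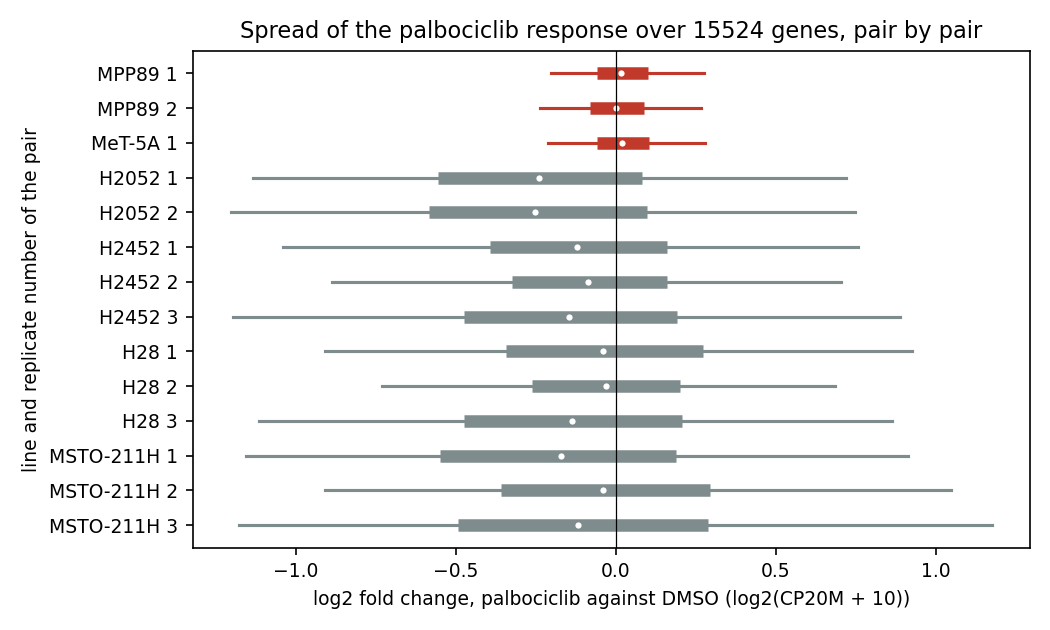
Spread of the log2 fold changes of 15524 genes in each pair of DMSO and palbociclib libraries, with the median (point), the middle 50% of genes (thick bar) and the 5% to 95% range (thin line); resistant pairs in red, sensitive pairs in grey. The 5% to 95% range was -0.20 to 0.28 in MPP89 pair 1, -0.24 to 0.27 in MPP89 pair 2 and -0.21 to 0.28 in MeT-5A, and is wider in every sensitive pair.

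Part of this spread is that of counting reads. Among the 3967 genes between 1000 and 3000 CP20M, the SD was 0.091, 0.0986 and 0.0937 in the 3 resistant pairs. Counting of reads at the estimated depths of 13000000 to 18700000 reads per library would alone give 0.0579, 0.0613 and 0.0666. In the same genes the sensitive pairs had an SD of 0.437 to 0.857. MPP89 replicates of the same treatment differed more than the treatments within a pair. The SD between the MPP89 DMSO replicates was 0.357 and that between the palbociclib replicates was 0.368. Between untreated and DMSO MeT-5A, which are different treatments and with no day given for the former, it was 0.497. The response of one pair carried over little to another. Across 15524 genes, which are not independent replicates, Pearson's r was 0.08 between the MPP89 pairs, 0.05 between MPP89 pair 1 and MeT-5A, and 0.08 between MPP89 pair 2 and MeT-5A. Over the 8658 genes with a mean of at least 500 CP20M these were 0.10, 0.08 and 0.17.

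Only 1 gene was called over the 3 pairs. Of 15524 genes tested, 1 (0.00644%) fell and 0 (0%) rose in limma, and none passed the 1.5-fold limit as well. At an unadjusted p under 0.05 there were 490 lower (3.16%) and 873 higher genes (5.62%). Rescaling by medians of ratios turned this balance to 863 lower and 478 higher, so that the excess of higher genes depends on the scaling. The scaling moved the median of all genes from 0.01 to -0.01. Lower in all 3 pairs were 1733 genes (11.2%), and higher in all 3 were 2743 (17.7%), which also reversed under medians of ratios, to 2826 lower and 1868 higher.

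The gene that fell was LBH (ENSG00000213626, chromosome 2 from 30231534 to 30323730 of GRCh38, plus strand), a transcription cofactor of limb and heart development and a WNT target in epithelia. LBH went from 3015 CP20M in DMSO to 2337 with palbociclib in MPP89 pair 1, from 3885 to 3297 in MPP89 pair 2 and from 4017 to 3381 in MeT-5A. It was lower with palbociclib in each pair, although the ranges of the 3 DMSO and 3 palbociclib libraries overlap, and the untreated MeT-5A library was at 3256 CP20M, below both. The mean log2 fold change was -0.28 ± 0.07 (SD, n = 3 pairs), with an adjusted p of 0.0182 in limma. In the sensitive lines LBH rose, by 0.75 in log2 (adjusted p = 0.023 in limma), and was higher in 8 of 11 pairs. The difference between the classes was -1.03 and did not pass the threshold (adjusted p = 0.2 in limma). The call of LBH was kept when any 1 pair was left out, but these fits of 2 pairs called 49 to 149 genes and say little of its stability. The fit without MeT-5A gave the spread of a single gene no weight. The call was lost without the pair block (adjusted p = 0.9998 in limma), with a pseudocount of 1 (0.14) and without a filter on low genes (0.716). It was also lost with the filter over all 33 libraries (0.689), with eBayes without trend (0.596) and with all 28 paired libraries in 1 fit.

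The genes next in order of p did not pass the threshold. Those with an adjusted p of 0.057 or 0.0697 are described here and were chosen after their values were seen. COL8A1, a short-chain collagen, was at 4018 and 3164 CP20M in DMSO and palbociclib of MPP89 pair 1, at 5328 and 4471 in MPP89 pair 2, and at 618 and 546 in MeT-5A (mean log2 fold change -0.26, adjusted p = 0.057 in limma). ACTA2, smooth muscle actin, was at 10453 and 7946, at 8743 and 8150, and at 8012 and 6782 CP20M in the same order (-0.25, adjusted p = 0.0697). Each was lower with palbociclib in all 3 pairs. ACTA2-AS1 overlaps ACTA2 and may share its reads. GREM1, a secreted BMP antagonist, was lower in both lines although its level differed widely, at 26065 and 24078 CP20M in MPP89 pair 1, 14299 and 12228 in MPP89 pair 2, and 220 and 162 in MeT-5A (-0.25, adjusted p = 0.0697). IL7R, the interleukin-7 receptor, had the same adjusted p and a mean of -0.25.

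The other genes at these adjusted p were higher in all 3 pairs. PLEKHA7, a protein of adherens junctions, was at 1137 and 1492 CP20M in DMSO and palbociclib of MPP89 pair 1, at 877 and 1042 in MPP89 pair 2, and at 369 and 482 in MeT-5A. Its mean log2 fold change was 0.34 (adjusted p = 0.057 in limma), but the untreated MeT-5A library had 1701 CP20M, far above both. SEMA3B, a secreted semaphorin, was at 2926 and 3419, 2829 and 3304, and 747 and 869 CP20M (0.22, adjusted p = 0.0697). AHNAK2, a large scaffold protein, was at 16717 and 21314, 9426 and 10134, and 1211 and 1448 CP20M (0.24, adjusted p = 0.0697). With a pseudocount of 50 all of COL8A1, PLEKHA7, SEMA3B, AHNAK2, IL7R, GREM1, ACTA2 and ACTA2-AS1 passed the threshold beside LBH.

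**Figure D2:**
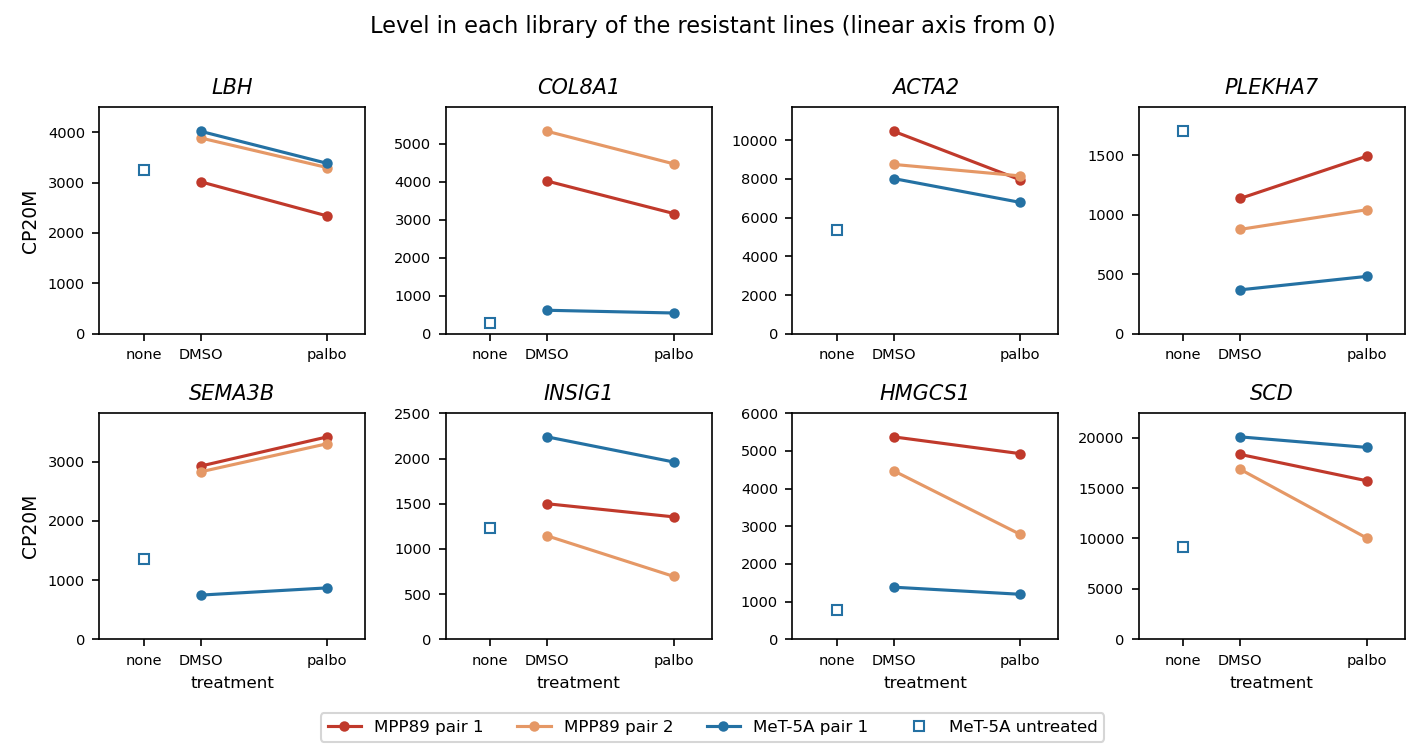
Level in CP20M of 8 genes in the 6 libraries and in untreated MeT-5A (open square); lines join the DMSO and palbociclib library of a pair, on linear axes from 0. In LBH, COL8A1 and ACTA2 every line slopes down and in PLEKHA7 and SEMA3B every line slopes up.

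Few shared changes were of any size. Beyond 0.32 in log2, in the same direction in all 3 pairs, were 6 of 15524 genes, 5 higher and 1 lower, and beyond 1.5-fold there were 0. MYO1F, an unconventional myosin, was at 80 and 113, 102 and 132, and 99 and 129 CP20M in DMSO and palbociclib of the 3 pairs. KAZALD1, a secreted IGFBP-related protein, was at 52 and 68, 67 and 88, and 211 and 325 CP20M. The others were chosen after their values were seen: GDPD3, a lysophospholipase, NXNL2 and AL353759.1 were higher, and PIH1D2 was lower. GDPD3 was at 31 and 55, 30 and 59, and 71 and 102 CP20M, and untreated MeT-5A had 217. These genes were at most at 325 CP20M in the 6 libraries, where a read is worth 1.07 to 1.54 CP20M, and none was called.

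Genes of sterol and fatty acid synthesis had the lowest median of the lists described. This list holds enzymes of the mevalonate and cholesterol pathway, the desaturases and synthases of fatty acids, and the regulators INSIG1, SREBF1 and SREBF2. SREBP factors activate these genes when sterols are scarce, while INSIG1 retains SREBP in the endoplasmic reticulum when sterols are plentiful. Of 26 tested members 16 (61.5%) were lower in all 3 pairs and 0 were higher, beside 11.2% and 17.7% of all genes. The median log2 fold change was -0.18 over the 3 pairs, beside 0.01 for all genes, and stayed negative when any pair was left out (-0.21, -0.10 and -0.22). No member was called over the 3 pairs, with 19 lower at an unadjusted p under 0.05. Without MPP89 replicate 1 there were 13 called, and without MPP89 replicate 2 there were 0. The sterol part of the list (19 genes) had a median of -0.19 and 14 members lower in all 3 pairs, and the SREBF1 and fatty acid part (7 genes) had -0.13 and 2.

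The promoters of the 3 members with the largest mean fall, INSIG1, SCD and HMGCS1, are printed here as examples of the list. They are the bases upstream of the annotated gene start within the RefSeq promoter windows of GRCh38.p14, 5′ to 3′ on the strand of the gene. Capitals mark the CCAAT box, bound by the factor NF-Y, or its reverse complement ATTGG.
INSIG1 (chr7:155297628-155297775, plus strand): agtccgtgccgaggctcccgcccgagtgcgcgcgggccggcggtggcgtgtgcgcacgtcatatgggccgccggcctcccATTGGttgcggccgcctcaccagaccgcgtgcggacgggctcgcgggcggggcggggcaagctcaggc
SCD (chr10:100346983-100347232, plus strand): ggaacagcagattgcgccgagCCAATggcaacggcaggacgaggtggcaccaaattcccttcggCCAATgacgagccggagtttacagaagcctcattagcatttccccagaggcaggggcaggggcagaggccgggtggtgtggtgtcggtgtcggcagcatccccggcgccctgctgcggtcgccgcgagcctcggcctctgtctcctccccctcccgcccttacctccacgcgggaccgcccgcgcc
HMGCS1 (chr5:43313513-43313662, minus strand): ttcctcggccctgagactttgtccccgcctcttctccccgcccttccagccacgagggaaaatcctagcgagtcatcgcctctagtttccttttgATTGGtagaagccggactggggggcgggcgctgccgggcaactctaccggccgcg
Of 20 members matched to a promoter window, 15 (75%) held CCAAT on either strand in the 250 bases upstream, against 41.7% of 10354 matched tested genes and 32% of all 35116 windows. The longer motif TCACNCCAC, one form of the sterol regulatory element, was found in 1 of the 20, SREBF2, and in 1.22% of tested genes. A match describes the letters of the window only.

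INSIG1 was at 1500 CP20M in DMSO and 1355 with palbociclib in MPP89 pair 1, at 1145 and 696 in MPP89 pair 2, and at 2240 and 1962 in MeT-5A (mean log2 fold change -0.35). SCD, the stearoyl-CoA desaturase, was at 18329 and 15718, 16850 and 10040, and 20068 and 19025 CP20M (-0.35). HMGCS1, which makes the HMG-CoA of the mevalonate pathway, was at 5370 and 4925, 4470 and 2784, and 1383 and 1195 CP20M (-0.34). Each was lower in every pair, with the largest distance in MPP89 pair 2. At the other end, ACACA (acetyl-CoA carboxylase) had a mean of -0.05 and SC5D of -0.04. The median of the list was -0.12 in MPP89 pair 1, -0.36 in MPP89 pair 2 and -0.05 in MeT-5A, with 23, 26 and 18 of 26 members lower. In 24 of 26 members the fall was larger in MPP89 pair 2 than in pair 1.

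The level of these genes also varied between control cultures. In MeT-5A, 25 of 26 members were lower in the untreated than in the DMSO library, and 24 were lower in the untreated than in the palbociclib library. INSIG1 was at 1232, SCD at 9106 and HMGCS1 at 774 CP20M in the untreated library. The part of culture conditions in the lower levels with palbociclib was not tested.

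**Figure D3:**
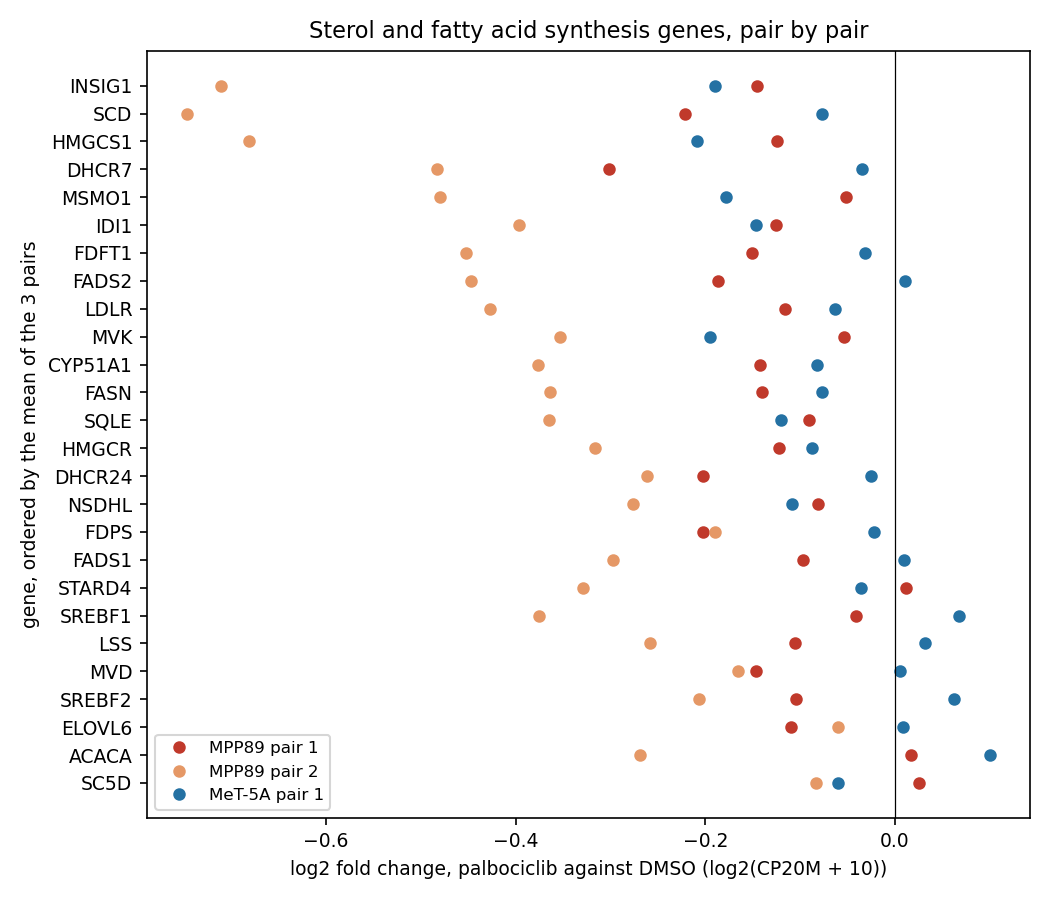
Log2 fold change of the 26 tested sterol and fatty acid synthesis genes in MPP89 pair 1, MPP89 pair 2 and MeT-5A, ordered by their mean. All points of MPP89 pair 2 lie below 0, and those of MeT-5A lie on both sides (18 of 26 lower).

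In MPP89 alone, 62 genes fell (0.419%) and 55 rose (0.372%) of 14802 tested in limma. Of these, 1 lower gene (WNT2) and 3 higher genes (MT-RNR1, CHAC1 and ICAM4) also passed the 1.5-fold limit. The prior degrees of freedom of this fit were infinite, so that the spread between the pairs of a single gene carried no weight, and 113 of the 117 genes had the same direction in both pairs. Without the pair block 0 were called, and with the filter set over all 33 libraries 0 were called. The 3 pairs and the 2 MPP89 pairs share the MPP89 libraries, so that these calls are not independent of those above. MeT-5A was not in this fit. It had the same direction in 46 of the 62 genes that fell (74.2%), beside 42.6% of all genes lower in MeT-5A, and in 33 of the 55 that rose (60%), beside 55.5% higher.

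Among the 62 that fell, 16 were sterol and fatty acid synthesis genes, and all 16 fell further in MPP89 pair 2. They included SCD (adjusted p = 8.53e-18 in limma), HMGCS1 (1.3e-10), INSIG1 (1.98e-07), FADS2 (2.4e-06) and FASN (0.000421). FADS1 and FADS2 desaturate polyunsaturated fatty acids, and FASN is the fatty acid synthase. Rescaling by medians of ratios left 5 of the 16 called. Others were secreted, matrix or cytoskeletal proteins, named here as single genes. CCDC80, a secreted matrix protein, went from 7519 to 5476 CP20M in pair 1 and from 13609 to 11314 in pair 2 (adjusted p = 3.17e-09), and was at 10992 and 11622 in DMSO and palbociclib of MeT-5A. CEMIP, a hyaluronan-degrading protein, went from 4815 to 3468 and from 5375 to 4461 CP20M (adjusted p = 6.64e-09). IGFBP5, a secreted binder of insulin-like growth factors, went from 18902 to 13259 and from 37917 to 35558 CP20M (adjusted p = 3.97e-06). COL8A1 (adjusted p = 2.01e-05), ACTA2 (0.000712), THBS1 (0.00679) and CTGF (0.0135) were also among them. WNT2, a WNT ligand, was a low gene that fell from 78 to 38 and from 254 to 197 CP20M (adjusted p = 0.0206).

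Among the 55 that rose, IGFN1, a large immunoglobulin-domain protein of muscle, went from 6766 to 9613 CP20M in pair 1 and from 2938 to 4065 in pair 2 (adjusted p = 8.29e-17 in limma), but was at 166 and 157 in MeT-5A. NEAT1 (chromosome 11 from 65422774 to 65445540), the long noncoding RNA that scaffolds paraspeckles, went from 70449 to 98554 and from 67579 to 74427 CP20M (adjusted p = 1.04e-05), with 13848 and 14007 in MeT-5A. Of the 55 calls, 5 lie at the NEAT1 gene and overlap it, MIR612 among them, and are not separate genes. VEGFA, the endothelial growth factor, went from 3056 to 3514 and from 2402 to 3287 CP20M (adjusted p = 4.28e-06). ICAM4, an adhesion protein of red cells, was a low gene that rose from 45 to 80 and from 62 to 127 CP20M (adjusted p = 0.0075) and was at 33 and 36 in MeT-5A.

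A further 7 of the 55 were targets of ATF4, the transcription factor of the integrated stress response, but the MPP89 pairs differed in them. The median log2 fold change over the 32 genes of that list was -0.05 in MPP89 pair 1, 0.33 in MPP89 pair 2 and 0.00 in MeT-5A, with 11, 29 and 16 of 32 members higher. CHAC1, a glutathione-degrading enzyme, went from 53 to 68 CP20M in pair 1 and from 107 to 250 in pair 2 (adjusted p = 0.00443 in limma). STC2, a stanniocalcin, went from 786 to 812 and from 651 to 1127 CP20M (adjusted p = 7.51e-06). SESN2, a sestrin, went from 237 to 243 and from 230 to 429 CP20M (adjusted p = 0.00546), and DDIT4, an inhibitor of mTORC1, was lower in pair 1, at 292 and 248, and higher in pair 2, at 503 and 962 (0.0167). SLC7A11, the cystine transporter, instead differed more in pair 1, from 4710 to 6029 CP20M, than in pair 2, from 4428 to 4991 (adjusted p = 0.000367). ASNS, which makes asparagine, was at 434 and 342 CP20M in pair 1 and at 967 and 1531 in pair 2 and was not called. Over the 3 pairs 0 of the 32 were called.

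**Figure D4:**
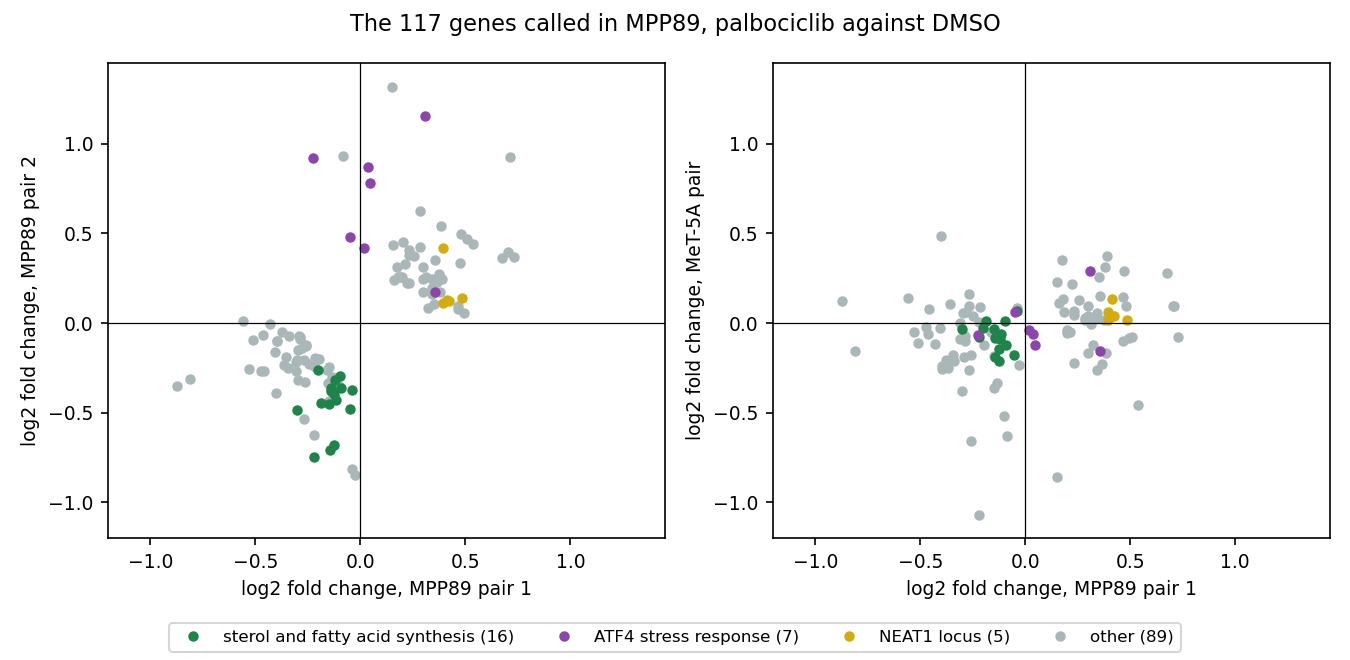
Log2 fold change of the 117 genes called in MPP89, with MPP89 pair 1 on the horizontal axis and MPP89 pair 2 (left) or MeT-5A (right) on the vertical axis, coloured by gene group. Sterol and fatty acid synthesis genes lie below 0 in both MPP89 pairs and farther from 0 in pair 2, ATF4 targets are mostly high in pair 2 and near 0 in pair 1, and the medians in MeT-5A were 0.03 for the genes that rose and -0.08 for those that fell.

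The proliferation genes, which mark the response of the sensitive lines, stayed near DMSO levels. Of 33 such genes 0 were called over the 3 pairs, and their median log2 fold change was -0.01, with -0.00 in MPP89 pair 1, -0.00 in MPP89 pair 2 and -0.03 in MeT-5A. Under medians of ratios it was -0.03, and the members lower in all 3 pairs went from 5 to 12 of 33, beside 2826 of 15524 genes. In the 11 sensitive pairs all 33 fell, with a median of -2.02, where 34.4% of 16759 genes fell and 15.1% rose. The difference between the classes was called for 23 of the 33, beside 9.52% of all 17517 genes tested, and for 14 with the sensitive pairs of day 9 alone. MKI67, which encodes the proliferation antigen Ki-67, was at 8453 and 9100 CP20M in DMSO and palbociclib of MPP89 pair 1, at 10310 and 10224 in pair 2, and at 11573 and 12821 in MeT-5A. Its difference between the classes was 3.18 in log2 (adjusted p = 0.0124 in limma). CCNA2, the S-phase and mitotic cyclin, was at 2178 and 1985, 1999 and 1999, and 3665 and 3465 CP20M, with a difference of 2.51 (adjusted p = 0.00352). CDK1, the mitotic kinase, was chosen after its values were seen and differed by 3.13 (adjusted p = 0.00984). E2F1 had the largest mean of the list, 0.10 (adjusted p = 0.552).

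Genes of DNA repair (17) and of the pRb pathway (16) had medians of 0.04 and -0.00, beside -1.34 and -0.36 in the sensitive lines, and 10 and 4 of them were called different between the classes, beside the same 9.52% of all genes (6 and 3 with the sensitive pairs of day 9 alone). CDKN2C, which encodes the CDK4/6 inhibitor p18 and is an E2F target, was at 1003 and 1144, 1080 and 1097, and 2125 and 2411 CP20M in the 3 pairs. It fell by 2.51 in the sensitive lines, and the difference was 2.65 (adjusted p = 0.000301 in limma). CCND1, cyclin D1, was at 2656 and 2861, 2492 and 2437, and 535 and 456 CP20M. It rose by 1.19 in the sensitive lines, a difference of -1.24 (adjusted p = 0.00279). CDKN1A, which encodes p21, was slightly higher in each pair, at 532 and 588, 381 and 470, and 2518 and 2669 CP20M (0.17, adjusted p = 0.34). CCNE1, cyclin E1, was at 474 and 534, 440 and 411, and 361 and 297 CP20M.

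Senescence and secretory genes (16) had a median of -0.02, beside 1.23 in the sensitive lines, where 11 of them rose. The difference was called for 8, beside 9.52% of all genes, and for 4 with the sensitive pairs of day 9 alone. C3, the complement component, rose by 2.71 in the sensitive lines and was at 1796 and 1488, 3653 and 3166, and 50 and 54 CP20M in the 3 resistant pairs, a difference of -2.84 (adjusted p = 0.0194 in limma). Lysosome and autophagy genes (36) had a median of 0.02 (-0.00 under medians of ratios) beside 0.59, and mitochondrially encoded genes (15) had 0.07 beside 0.81. Interferon-stimulated genes (20) had 0.03 beside 0.63, and moved apart in the pairs, with medians of -0.20, 0.13 and 0.11. The difference between the classes was called for 10 of the 36 lysosome and autophagy, 0 of the 15 mitochondrially encoded and 5 of the 20 interferon-stimulated genes. The share of all genes was 9.52%. With the sensitive pairs of day 9 alone the difference was called for 3, 0 and 1 of them. IFIT2, an interferon-induced RNA-binding protein, was at 1079 and 1052, 1165 and 1177, and 606 and 526 CP20M, with a difference between the classes of -2.14 (adjusted p = 0.0222). MX1, an interferon-induced GTPase, was at 5537 and 4636 in MPP89 pair 1 but at 4465 and 5612 in MPP89 pair 2.

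**Figure D5:**
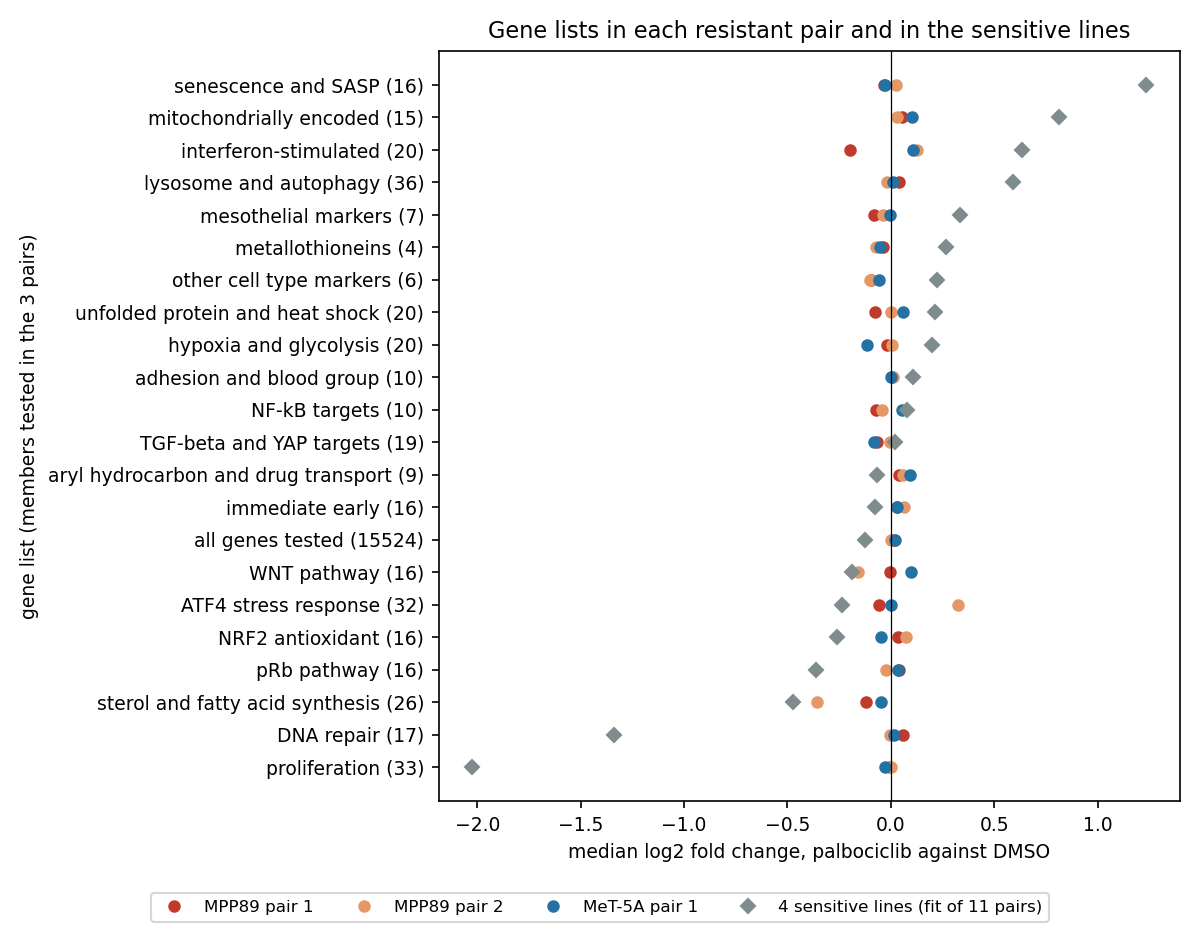
Median log2 fold change of each gene list in MPP89 pair 1, MPP89 pair 2 and MeT-5A (circles) and in the fit of the 11 sensitive pairs (diamonds); numbers in brackets are the members tested. The resistant pairs lie near 0 for proliferation, with medians from -0.03 to -0.00 beside -2.02, and apart from 0 mainly for sterol and fatty acid synthesis, ATF4 and interferon-stimulated genes in single pairs.

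The TGF-beta and YAP targets had 6 of 19 members lower (31.6%) and 3 higher (15.8%) in all 3 pairs, beside 11.2% and 17.7% of all genes. Their median was -0.03. Under medians of ratios 8 of the 19 were lower and 3 higher, beside 2826 and 1868 of 15524 genes. ANKRD1, a YAP target, was at 707 and 578, 562 and 545, and 1638 and 1134 CP20M (-0.29, adjusted p = 0.211 in limma) but at 2497 in untreated MeT-5A. It rose by 2.06 in the sensitive lines, and the difference was -2.35 (adjusted p = 0.0115, or 0.0552 with the sensitive pairs of day 9 alone). ID1, a BMP target, had the largest mean of that list, 0.23 (adjusted p = 0.208). Hypoxia and glycolysis genes had 6 of 20 lower (30%) and 0 higher in all 3 pairs, beside the same shares of all genes. Their median was -0.04, and ALDOC, an aldolase, had the lowest mean, -0.26 (adjusted p = 0.29 in limma). Under medians of ratios 6 of these 20 genes were again lower and 0 higher, but beside 2826 and 1868 of 15524 genes. Of 9 aryl hydrocarbon and drug transport genes 3 (33.3%) were higher in all 3 pairs, beside 17.7% of all genes. Under medians of ratios 2 of the 9 were higher, beside 1868 of 15524 genes. ABCB1, the multidrug exporter, which rose by 1.41 in the sensitive lines, was at 298 and 281, 699 and 530, and 42 and 49 CP20M. The difference in ABCB1 was -1.50 (adjusted p = 0.0344, or 0.104 with the sensitive pairs of day 9 alone).

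No gene was called over the 3 pairs in the remaining lists. Medians, beside 0.01 for all genes, were -0.02 for unfolded protein and heat shock genes (20), -0.00 for NRF2 antioxidant genes (16), -0.04 for NF-kB targets (10), 0.01 for immediate early genes (16, -0.02 under medians of ratios), -0.08 for the WNT pathway (16), -0.01 for adhesion and blood group genes (10) and -0.05 for metallothioneins (4). In the WNT pathway, WNT9A was at 89 and 133, 45 and 82, and 148 and 165 CP20M (0.47, adjusted p = 0.262 in limma). Among immediate early genes, EGR1 was at 163 and 74 in MPP89 pair 1, 99 and 117 in pair 2, and 314 and 365 in MeT-5A. Mesothelial markers (7) had a median of -0.04 with 3 lower (42.9%) in all 3 pairs. Markers of other cell types (6 entries, RGS5 under both of its entries) had -0.12 with 4 lower (66.7%), beside 11.2% of all genes. The RGS5 entry ENSG00000232995 was not lower in MeT-5A, at 83 CP20M in DMSO and 84 with palbociclib. The medians of the other cell type list were -0.10, -0.10 and -0.06 in MPP89 pair 1, MPP89 pair 2 and MeT-5A. ACTA2 and RGS5, which mark pericytes, were its lowest members.

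The response differed between MPP89 and MeT-5A for 18 genes (0.116%) of 15524 in limma, which hold 15 distinct sets of values, since some RNAs are annotated more than once. With 1 pair of MeT-5A the only replicate spread in this comparison is that between the MPP89 pairs. This spread carried little weight for a single gene, since the fit had 38.9 prior degrees of freedom, drawn from all genes. It gave 0 calls under medians of ratios, under upper-quartile scaling and without the pair block. The smallest p-values belonged to ribosomal RNAs of mitochondria, MT-RNR1 and MT-RNR2. MT-RNR1 was at 99 and 111 CP20M in MPP89 pair 1, at 7388 and 18433 in MPP89 pair 2, at 13075 and 7214 in MeT-5A, and at 103 in the untreated library. MT-RNR1 was thus near 100 CP20M in 3 of the 7 libraries, and 7 of the 22 libraries of sensitive lines were above 1000. MT-CYB, a mitochondrial messenger RNA, stayed close to DMSO within each pair, at 7214 and 6884, 18202 and 17749, and 12606 and 12798 CP20M. Small structural RNAs differed too, at smaller size: RN7SL1, the RNA of the signal recognition particle, was at 8271 and 8830, 9916 and 9964, and 11548 and 8555 CP20M. The part of library preparation in these values was not tested.

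Among messenger RNAs the lines differed in IGFN1 (difference 0.56, adjusted p = 0.00566 in limma) and CCDC80 (-0.44, adjusted p = 0.0192), both described above. APOE, LRRN1, MDGA2 and CACNG6 were also called, but passed the filter on low values only through MPP89. In the single pair of MeT-5A, DMSO and palbociclib libraries had 20 and 36 CP20M of APOE, 50 and 28 of LRRN1, 0 and 13 of MDGA2, and 2 and 14 of CACNG6. With a pseudocount of 50 the difference went from -0.69 to -0.37 in APOE (adjusted p = 0.498), from 0.81 to 0.51 in LRRN1 (0.285), from -1.18 to -0.31 in MDGA2 and from -0.98 to -0.28 in CACNG6 (both 1).

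For the comparison with the sensitive lines, the 11 sensitive pairs of 4 lines and the 3 resistant pairs of 2 lines counted as replicates. Variation of the response between the lines of a class was not modelled, so the calls describe these pairs. The response of the resistant lines differed for 1667 of 17517 genes (9.52%), 279 with a lower and 1388 with a higher value in the resistant lines. Under medians of ratios these were 774 and 510, so the direction of the split depends on scaling, and leaving out any 1 resistant pair brought the total down to between 194 and 245. With the sensitive pairs of day 9 alone, the same day as the resistant pairs, it was 635. In the sterol and fatty acid list 21 of 26 members fell in the sensitive lines as well, beside 34.4% of 16759 genes, with a median of -0.47. The difference between the classes was called for 3 of the 26, near the 9.52% of all genes. FADS1 was at 3313 and 3097, 3520 and 2862, and 5698 and 5736 CP20M in the resistant pairs, a difference of 1.13 (adjusted p = 0.00182 in limma). FADS2 and INSIG1 differed by 0.98 (adjusted p = 0.00731) and 1.15 (adjusted p = 0.00906). INSIG1 and FADS2 passed no longer without the pair block, without MPP89 replicate 1 or without MeT-5A (adjusted p from 0.0574 to 0.0963), and INSIG1 also not under upper-quartile scaling (0.0546). For HMGCS1 the difference was 0.21 (adjusted p = 0.658), and for SCD 0.55 (0.461).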

How the data were processed

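RNA-seq was analysed in the 6 DMSO and palbociclib libraries of MPP89 and MeT-5A, with 22 libraries of 4 sensitive lines for comparison. Per the submitters' processing notes and the methods, the authors trimmed reads with Trimmomatic 0.36, mapped them with STAR 2.5.3 to GRCh38, counted them per gene with HTSeq 0.9.1 and expressed counts per 20000000 reads of the library. The authors called DE genes with DESeq2 on pairs of treated and control samples. The deposited values are therefore a score, CP20M rounded up to whole numbers, for 58302 genes, and not counts. No count model was fitted here.

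In R 4.3.3, limma 3.58.1 was run on log2(CP20M + 10) (lmFit, eBayes with trend), with the pair as a block. Genes with at least 100 CP20M in 1 library of a fit were tested. Calls had a Benjamini-Hochberg FDR under 0.05. Lists are described by counts and medians. The functions were tested on simulated data. Steps between adjacent low values gave depths of 13000000 to 18700000 reads per library, at which 1 read is worth 1.07 to 1.54 CP20M. MPP89 DMSO replicates shared 0.651% of their values and the palbociclib replicates 0.612%, so that none was counted as 1 library. Pairing came from the methods, and deviations of same-numbered MPP89 libraries from their group means correlated with r = 0.836 over 15524 genes.

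Named genes were called genes, the 10 largest shared rises and falls, the 2 highest and 2 lowest members of each list, RB1, NF2, CDKN2A, CDKN2B, CCNE1 and D-type cyclins, genes of opposite sign in the lines, and WNT2, CHAC1, ICAM4 and MT-RNR1. Other named genes were chosen after their values were seen. Results of some single genes and of 1 list are left out. The libraries, lists and rules were chosen with earlier results of these data known. Alternatives were no block, pseudocounts of 1 and 50, other filters, 2 scalings, eBayes without trend or robust, 1 fit of all 28 paired libraries, and leaving out each pair. The scaling of list counts and the fit with sensitive pairs of day 9 only were added after seeing the data. Positions are from GENCODE 44, and promoter windows from RefSeq (GRCh38.p14).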

Additional observations from a re-analysis of the deposited data

Results flagged for a closer look

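The response to palbociclib differed between MPP89 and MeT-5A, by the test of the difference in limma, in 18 annotated genes. Values are the log2 fold change of MPP89 minus that of MeT-5A, with adjusted p. In order of p, ribosomal RNAs of mitochondria came first, MT-RNR1 by 1.59 (2.13e-06) and MT-RNR2 by 1.06 (0.000815). Among small structural RNAs, RN7SL1 and AL139099.5, which hold identical values, differed by 0.48 (0.00371) and RN7SL2 by 0.43 (0.0192). 7SK and RN7SK, annotated at the same RNA, differed by 0.40 (0.0335), and both entries of RMRP by 0.39 (0.0347).

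Messenger and antisense RNAs made up the rest. IGFN1 differed by 0.56 (0.00566), CCDC80 by -0.44 (0.0192), MDGA2 by -1.18 (0.0285), APOE by -0.69 (0.0347), LRRN1 by 0.81 (0.0347) and CACNG6 by -0.98 (0.0395). RAET1E-AS1 differed by -0.77 (0.0347), HAND2-AS1 by -0.93 (0.0347) and CEBPB-AS1 by -0.71 (0.0483). In the single MeT-5A pair, MDGA2, CACNG6, HAND2-AS1, LRRN1 and APOE were at or under 50 CP20M and passed the filter only through MPP89. With a pseudocount of 50 none of these 5 was called, with differences of -0.31, -0.28, -0.56, 0.51 and -0.37 in that order.

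Between the resistant and the sensitive lines, with pairs taken as replicates, the response differed for 1667 of 17517 genes (9.52%). In the sterol and fatty acid list, which was lower in both classes, 3 of 26 members were called for this difference, near the share of all genes. FADS1 differed by 1.13 (adjusted p = 0.00182 in limma), FADS2 by 0.98 (0.00731) and INSIG1 by 1.15 (0.00906), each as resistant minus sensitive in log2.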

How the results depend on the processing

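Over the 3 resistant pairs 1 gene was called, and 0 were with no replicate block (79 at an unadjusted p under 0.05), a pseudocount of 1, no filter on low values, the filter over all 33 libraries, eBayes without trend or all 28 paired libraries in 1 fit. A pseudocount of 50 gave 9, medians of ratios 3, upper-quartile scaling 7 and robust eBayes 5. Leaving out each pair gave 49 (without MPP89 replicate 2) to 149 (without MPP89 replicate 1), and 117 without MeT-5A, in fits of 2 pairs. For MPP89 alone the count of 117 became 0 with no replicate block, no filter, the filter over all 33 libraries or eBayes without trend, 11 under medians of ratios and 40 under upper-quartile scaling. Between MPP89 and MeT-5A the count of 18 became 135 with a pseudocount of 1 and 0 with no replicate block (19 at an unadjusted p under 0.05), under both scalings and without trend. Leaving out an MPP89 replicate could not be fitted there, since no residual degrees of freedom remain. Against the sensitive lines the count of 1667 stayed within 1.5 times under every setting except leaving out a resistant pair (194 to 245) and, added after seeing the data, sensitive pairs of day 9 only (635). Beyond 0.32 in log2 in all 3 pairs the count of 6 became 21 with a pseudocount of 1 and 1 with a pseudocount of 50. The causes of these changes were not tested. No called gene that was followed across these settings reversed its direction, while the balance of higher and lower genes did under both scalings. For MPP89 alone and against the sensitive lines, only some called genes were followed. These were members of the sterol and fatty acid list, LBH, CHAC1, WNT2, ICAM4 and MT-RNR1. The 2 MPP89 pairs and the single MeT-5A pair leave small differences of low genes undetectable at these depths.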

Other observations

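Some genes had one sign of response in both MPP89 pairs and the other in MeT-5A. Among those with the largest such differences, IL32, BIRC3 and CETP were low in MeT-5A and were not called for the difference between the lines. IL32, an inflammatory cytokine, was at 314 and 230 CP20M in DMSO and palbociclib of MPP89 pair 1, at 181 and 162 in MPP89 pair 2, and at 8 and 18 in MeT-5A. BIRC3, an inhibitor of apoptosis induced by NF-kB, was at 152 and 149, 196 and 175, and 11 and 27 CP20M. CETP, the cholesteryl ester transfer protein, fell in MPP89 from 270 to 202 and from 460 to 349 CP20M (adjusted p = 0.0176 in limma) and was at 5 and 11 in MeT-5A. In untreated MeT-5A these genes were at 23 (IL32), 52 (BIRC3) and 32 CP20M (CETP), above the DMSO library in each case.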
